A study of Mus musculus with 8 samples.

Results

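The serum response of Med23-/- mouse embryonic fibroblasts was measured on 4 of the 8 arrays of the study, chosen by their sample labels. Of these, 2 carried RNA of knockout cells kept starved and 2 carried RNA of knockout cells given serum. The cells came from embryos of day 11 and had been passaged through crisis, the stage that a primary culture must pass before it grows as an immortal line. Every culture was held for 16 h in 0.5% fetal bovine serum (FBS), and the stimulated ones then received 20% FBS for 30 min. The other 4 arrays held wild-type (WT) fibroblasts from embryos of the same day, also passaged through crisis and treated in the same way. The study asked which serum-responsive genes need MED23, with attention to the immediate early gene Egr1. The labels name a first and a second replicate (set 1 and set 2) in each group but do not say whether these were separate cultures or how many lines stand behind a genotype. The p-values below therefore measure only the spread between these samples, and traits of a culture cannot be told apart from its genotype. Signals were compared as log2(signal + 16). The 40th percentile of an array was used as its lower limit, and 14947 of 22626 probe sets reached it on at least 2 of the 8 arrays and were tested. On at least 2 of the 4 knockout arrays, 13950 reached it.

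Serum growth factors act through receptor tyrosine kinases and the MAP kinase cascade on transcription factors that are already present, among them serum response factor (SRF) with its Elk-family partners. These switch on the immediate early genes within minutes, without new protein synthesis. Mediator is the multi-subunit complex that links such DNA-bound factors to RNA polymerase II, and MED23 is the subunit through which phosphorylated ELK1 contacts it. Many immediate early genes encode transcription factors, others encode inhibitors that end the signal again, and their RNAs are short-lived.

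The Med23 probe set read 28.0 and 133 on the starved knockout arrays and 34.6 and 36.9 on the stimulated ones, against 3577 to 5410 on the wild-type arrays. The scaled mean was the same on all arrays (2500.6 to 2500.8), and knockout replicates correlated at 0.976 (starved) and 0.984 (stimulated) over probe sets. Of 12 fibroblast markers, 11 lay above the 40th percentile on all 4 knockout arrays, the exception being Thy1. Of the markers of epithelial, endothelial, haematopoietic, neural, skeletal muscle and adipocyte cells, between 0 and 2 per list did so. These were Csf1r (937.5 to 1082), Map2 (1597 to 2025), Des (503 to 640), Cebpa and Lpl. Krt8 lay above the limit on 3 of the 4 knockout arrays. Cdh1, Pecam1, Ptprc and Adipoq stayed below it on all 4. The summed adipocyte list was lower after serum (4024 and 3762) than before (6572 and 5613), which came from Cebpa and Lpl, while Adipoq, Pparg and Fabp4 were low throughout. The part of these markers in the results was not tested. In bulk RNA, fewer cells of a kind and less RNA per cell cannot be told apart.

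Within 30 min of serum, knockout fibroblasts changed the RNA of many genes, and the steepest changes were rises. With limma and a Benjamini-Hochberg adjusted p under 0.05, 3455 probe sets passed, which is 23.1% of those tested. Of these 1395 rose and 2060 fell, or 9.33% and 13.8% of the probe sets tested. The median rise was 1.77-fold and the median fall 1.61-fold. Rises were larger at the extreme, with 142 probe sets over 4-fold and 56 over 8-fold, against 59 and 14 among the falls. Most calls did not start or end in the dim range, since 88.3% of risen and 85.8% of fallen probe sets lay above the 40th percentile on all 4 knockout arrays. The 2 stimulated arrays did not overlap the 2 starved ones for 62.5% of the probe sets tested, 21.4% higher and 41.1% lower. With a change over 2-fold as well, 560 probe sets were higher (3.75%) and 480 lower (3.21%), together 6.96% of those tested.

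The balance between rises and falls depended on how the arrays were scaled. On the deposited scale the median change over all tested probe sets was -0.13 on the log2 scale, and 40.4% of the calls were rises. With each array centred on its median, 1955 probe sets rose and 992 fell, so that rises were 66.3% of calls, and with quantile normalization they were 49.4%. Without the first stimulated array 1581 probe sets were called (769 higher, 812 lower), and without the second 1785 (843 higher, 942 lower). Without the second starved array 1319 were called lower. An exact two-sided permutation test of 2 arrays against 2 cannot give a p under 0.333, so all calls rest on the spread that limma shares across probe sets and groups. At the edge of the filter, the 461 probe sets that passed on exactly 2 arrays had a median change of -0.14, and the 543 that passed on 1 array, left out of the tests, had -0.13.

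**Figure D1:**
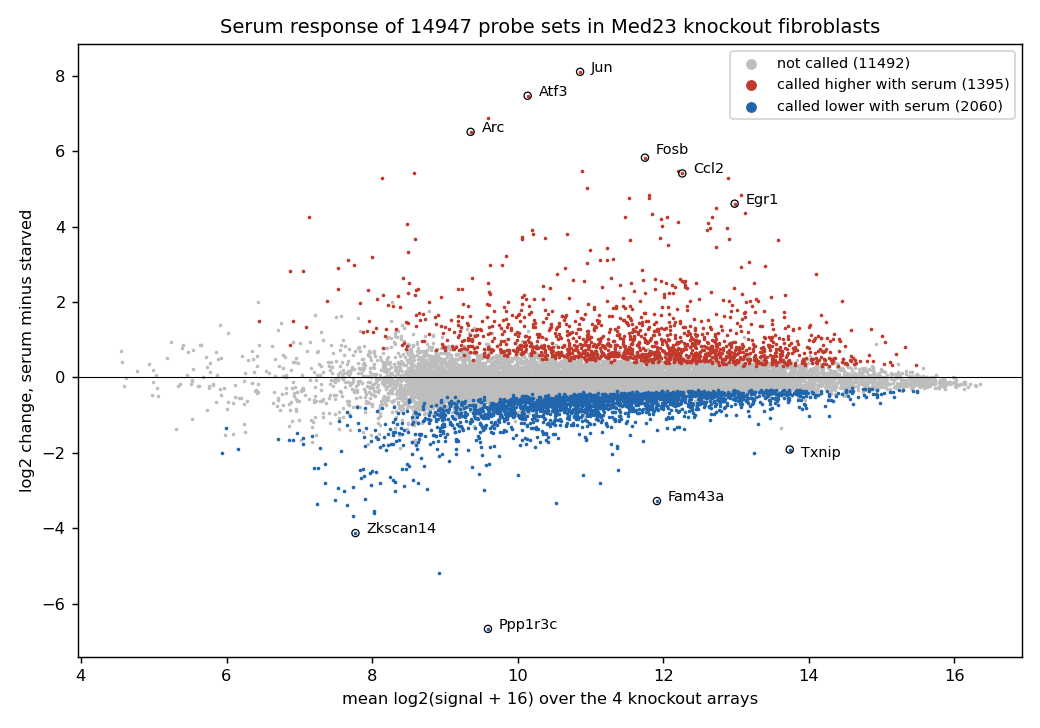
Log2 change with serum (stimulated minus starved) in Med23 knockout cells against the mean log2(signal + 16) of the 4 knockout arrays, 1 point per tested probe set. Red points are the 1395 probe sets called higher, blue points the 2060 called lower and grey points those not called; Jun (8.10) and Ppp1r3c (-6.67) lie at the ends.

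Nearly all immediate early transcription factor genes rose in the knockout cells. Of 30 genes in this list, 29 were on the array, 28 were tested and 27 rose, with a median log2 change of 2.75 (6.74-fold) against -0.16 over all genes tested. This list and those below were chosen with earlier results of these data known, so their shares are descriptions. The background share of genes that rose, by the brightest probe set of each, was 8.41%, and 15.2% fell. Over genes above the 40th percentile on all 4 knockout arrays the shares were 8.88% and 15.6%. The count was 27 with any 1 of the 8 arrays left out and under both other scalings. Of the 22 members above the 40th percentile on all 4 knockout arrays, 21 rose.

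Jun, which encodes a core subunit of the AP-1 transcription factor, read 84.0 and 109 on the starved arrays of sets 1 and 2 and 31860 and 29710 on the stimulated ones. The groups were far apart, although the starved values lay below the 40th percentile. The log2 change was 8.10 ± 0.14 (SE, n = 2 arrays per group; limma adjusted p = 7.27e-10), and 6.46 to 8.31 with the other pseudocounts. Atf3, a stress-inducible partner of the AP-1 family, read 164 and 23.6 before serum and 15370 and 14600 after it. Both starved arrays were dim and unlike each other, and the change was 7.47 ± 0.53 (limma adjusted p = 9.77e-06). It was 8.57 without the first and 6.38 without the second starved array, and 5.47 to 7.88 with the other pseudocounts. Among 194 called genes named in the text or by rule, the fold moved by over 1.5 times with another pseudocount in 29 and with 1 knockout array left out in 10, so values against dim signals are approximate. Fos, the classic partner of JUN, went from 1862 and 1359 to 46810 and 44540, a change of 4.83 ± 0.17. Fosb, a second Fos family member, went from 479 and 405 to 26490 and 25350, or 5.83 ± 0.16. All 4 Fos family genes on the list rose, with Fosl1 at 5.02 and Fosl2 at 1.45. The other Jun genes rose too: Junb read 1272 and 1792, then 24080 and 28000 (4.09 ± 0.17), and Jund read 4828 and 4736, then 22990 and 17980 (2.08 ± 0.14).

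The 4 Egr zinc finger factors, direct targets of SRF and Elk factors, all rose as well. Egr1, the gene that the study singled out, read 1336 and 1965 on the starved knockout arrays and 40510 and 39300 on the stimulated ones. No starved array came near a stimulated one, and the change was 4.61 ± 0.16 (limma adjusted p = 5.6e-08), or 24.4-fold. Egr2 read 166 and 420, then 12020 and 13110, a change of 5.48 ± 0.33 (4.85 without the first and 6.11 without the second starved array). Egr3, at 574 and 624 before serum, reached 3140 and 3176 (2.37 ± 0.25), and Egr4 went from 350 and 258 to 3489 and 5559 (3.80 ± 0.51). The orphan nuclear receptor gene Nr4a1 went from 965 and 1469 to 45820 and 49450 (5.30 ± 0.17). Its relative Nr4a2 was the single tested member not called, at 540 and 624 before and 621 and 716 after serum (0.20 ± 0.24, limma adjusted p = 0.588), and the arrays of the groups overlapped. Krüppel-like factor genes rose as well: Klf10 changed by 3.51, Klf4 by 2.14, Klf6 by 2.02 and Klf2 by 1.10. Myc, at 5066 and 5646 before serum, read 18410 and 17260 after it (1.73 ± 0.11). Srf, the gene of the serum response factor itself, went from 8692 and 9270 to 22660 and 21160, a change of 1.29 ± 0.13.

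**Figure D2:**
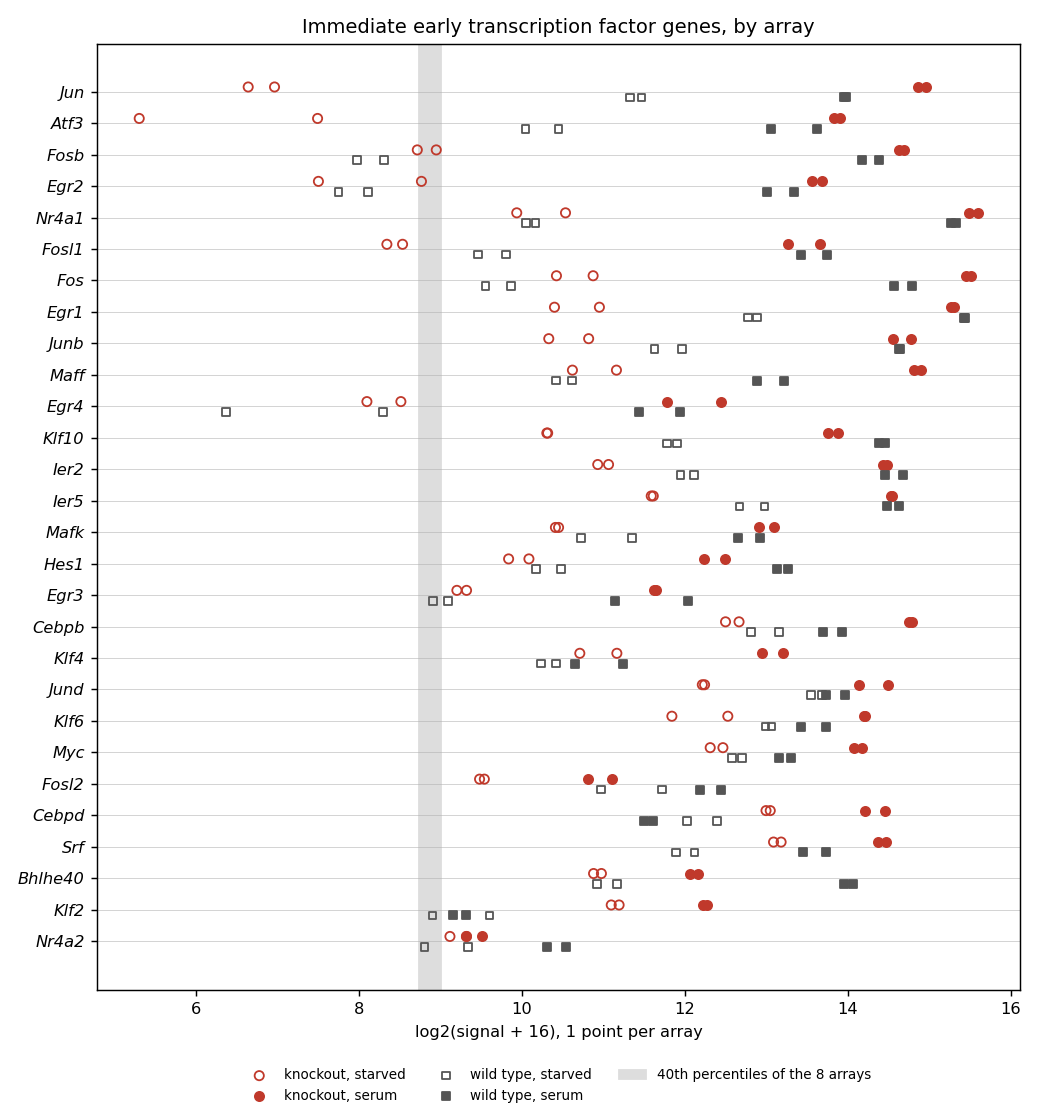
Log2(signal + 16) of 28 immediate early transcription factor genes on each array, ordered by the knockout change; circles are knockout arrays and squares wild-type arrays, open for starved and filled for stimulated cells, and the grey band spans the 40th percentiles of the arrays. In all genes but Nr4a2 the filled circles lie to the right of the open ones, from 8.10 for Jun to 1.10 for Klf2.

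Promoter letters of these genes were read from the RefSeq table for GRCm38.p6, which gives 300 bases per start (250 before and 50 after it). It held promoters for 6893 of the 8453 tested genes and for 19 of the 28 immediate early factors. The CArG box, the sequence that SRF binds, was searched on both strands. It occurred in 1.63% of all 32851 promoters in the table and in 1.34% of those of tested genes. Among genes that rose in knockout cells the share was 3.93% of promoters, and among genes that fell 0.87%. Some genes, such as Egr2, have several promoters in the table. By gene, 4.61% of risen genes held the box, against 1.65% of tested genes. Of genes that rose over 2-fold, 2.9% held it. Of the 19 matched immediate early factors, 2 held it, Egr2 and Srf. Their windows are shown because both genes rose, with Zfp36, a gene of RNA decay described below, added for the same motif; all lie upstream of the start, and capitals mark the box. The Egr2 window lies at chr10:67537454-67537543 (plus strand), the Srf window at chr17:46556175-46556284 (minus strand) with 2 boxes, and the Zfp36 window at chr7:28379237-28379326 (minus strand).

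Egr2: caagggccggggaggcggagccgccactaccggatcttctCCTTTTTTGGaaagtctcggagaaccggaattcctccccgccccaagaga
Srf: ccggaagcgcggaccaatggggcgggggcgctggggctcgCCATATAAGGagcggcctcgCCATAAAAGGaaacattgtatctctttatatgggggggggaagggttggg
Zfp36: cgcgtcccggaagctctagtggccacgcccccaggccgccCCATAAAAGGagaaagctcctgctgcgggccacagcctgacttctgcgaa

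The letters TGACGTCA, the full cyclic AMP response element bound by CREB and ATF proteins, read the same on both strands. They occurred in 1.79% of all promoters and 3.06% of those of tested genes, in 6.41% of those of risen genes and in 2.32% of those of fallen genes. The windows of 3 risen genes that hold them are shown with the letters in capitals: Btg2 at chr1:134079274-134079361 (minus strand), Maff at chr15:79347451-79347519 (plus strand) and Dusp1 at chr17:26508568-26508655 (minus strand). A match describes the letters in these windows and shows no binding. Other letters were counted in the same way. TGANTCA, where N is any base, occurred in 5.5% of promoters of risen genes, against 5.24% of those of tested genes. For TATAAA the shares were 8.64% and 7.23%, and for GGGCGG 73.6% and 64.2%.

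Btg2: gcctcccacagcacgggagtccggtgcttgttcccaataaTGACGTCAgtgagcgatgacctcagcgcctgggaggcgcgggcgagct
Maff: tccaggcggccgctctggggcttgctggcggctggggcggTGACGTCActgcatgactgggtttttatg
Dusp1: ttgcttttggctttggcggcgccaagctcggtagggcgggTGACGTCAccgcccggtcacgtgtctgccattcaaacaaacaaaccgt

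Of 13 tested genes that limit MAP kinase signalling, 8 rose (61.5%, against 8.41% of all genes tested). Of the rest 1 fell (7.69%, against 15.2%) and 4 were not called, and the median change of the list was 0.92. Dusp1, a phosphatase that switches off MAP kinases in the nucleus, read 1905 and 1324 before serum and 24570 and 23490 after it (3.91 ± 0.18, limma adjusted p = 3.06e-07). The groups were clearly apart, as they were for Errfi1, an inhibitor of the EGF receptor family, which went from 5822 and 7800 to 43460 and 47310 (2.75 ± 0.16). Dusp2 changed by 3.37 ± 0.23 and Dusp6, which acts on ERK, by 2.61 ± 0.23. Spry2, a Sprouty inhibitor, rose from 3351 and 3432 to 5281 and 5187 (0.62 ± 0.14), a call lost without either stimulated array, and Spry1, Spred1, Spred2 and Dusp10 were not called. The exception in direction was Rgs2, a regulator of G protein signalling, at 855 and 778 in starved cells and 72.9 and 154 after serum. Its change was -2.76 ± 0.60 (limma adjusted p = 0.00975), and -2.93 to -1.55 with the other pseudocounts. The call was lost in the fit without the first stimulated array or without either starved array.

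All 15 tested genes of RNA decay and growth restraint rose, with a median change of 2.51, and 12 or 13 did so with 1 knockout array left out. All 12 members above the 40th percentile on all 4 knockout arrays rose, against 8.88% of genes above that limit. The other 3 lay under it on some knockout array, and such genes could pass the filter through the arrays where they were high. Zfp36 encodes tristetraprolin, which binds AU-rich elements and promotes the decay of many early RNAs. It read 2245 and 1712 before serum and 41180 and 40060 after it, a change of 4.36 ± 0.13. Its relatives Zfp36l1 (0.76) and Zfp36l2 (0.69) rose as well, the latter call being lost in several alternatives. Zc3h12a, the gene of the endonuclease regnase-1, went from 101 and 181 to 807 and 895 (2.51 ± 0.29). Btg2, which recruits the deadenylase complex, read 1691 and 1188, then 30870 and 33260 (4.48 ± 0.16), and Btg1 rose by 1.25. Among the Gadd45 stress genes, Gadd45g went from 1091 and 1128 to 18580 and 20580 (4.12 ± 0.22). Gadd45a remained below the 40th percentile on every knockout array, at 35.5 and 21.9 before serum and 347 and 251 after it (2.82 ± 0.31), and Gadd45b, bright throughout, rose by 0.91. Plk3, a polo-like kinase gene, read 27.3 and 31.1, then 1957 and 1552 (5.28 ± 0.56, and 2.81 to 5.85 with the other pseudocounts). Sgk1, the serum- and glucocorticoid-regulated kinase, read 3039 and 3370 and then 27310 and 26510 (3.07 ± 0.10).

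Among genes of early secreted proteins 11 of 16 tested rose (68.8%, against 8.41% of all genes tested) and none fell. Their median change was 1.72. Among the 12 members above the 40th percentile on all 4 knockout arrays, 9 rose (75.0%, against 8.88% of genes above that limit). The other 4 lay under it on some knockout array and could pass the filter through their high arrays. The chemokine gene Ccl2, whose product attracts monocytes, read 679 and 800 in starved cells and 30700 and 33340 after serum. This was a change of 5.41 ± 0.30 (limma adjusted p = 1.59e-06), with all 4 arrays above the 40th percentile. A second chemokine gene, Ccl7, went from 543 and 835 to 19610 and 17710 (4.76 ± 0.42), and the neutrophil chemokine gene Cxcl1 from 553 and 769 to 18450 and 19860 (4.84 ± 0.24). Hbegf, a growth factor of the EGF family, read 682 and 590, then 11050 and 13740 (4.25 ± 0.15). Lif (3.67) and Il6 (4.07) also rose, Il6 from dim and uneven starved values of 25.3 and 168 (2.99 to 5.14 with 1 knockout array left out). The matricellular genes Ccn2 and Ccn1 started high and rose by 2.03 and 1.29. Csf1, Cxcl10, Inhba, Csf2 and Thbs1 were not called, and Csf2 stayed near the floor of the array.

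F3, the gene of tissue factor that starts blood clotting, was in no list and entered through its size. It read 888 and 1025 before serum and 18120 and 19180 after it (4.27 ± 0.13, limma adjusted p = 2.83e-08). Ptgs2, the inducible cyclooxygenase, went from 1378 and 1840 to 22760 and 27900 (3.97 ± 0.17), and Ptger4, a receptor for its product prostaglandin E2, rose by 1.94. The cytokine receptor genes beside them did not rise: Il4ra (-1.09) and Il6st (-0.40) were called lower, both calls being lost with median centring and with several single arrays left out, and Il1r1, Il6ra, Lifr and Osmr were not called. Of 9 tested genes of prostaglandins and interleukin receptors, 2 rose and 2 fell (22.2% each, against 8.41% and 15.2% of all genes tested).

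NF-kB is the transcription factor of inflammatory signals that is held back by IkB proteins and induces its own inhibitors. Of 15 tested genes of its subunits and feedback, 11 rose (73.3%, against 8.41% of all genes tested) and none fell. Their median change was 1.06. Among the 10 members above the 40th percentile on all 4 knockout arrays, 7 rose (70.0%, against 8.88% of genes above that limit). The other 5 lay under it on some knockout array and could pass the filter through their high arrays. Tnfaip3, which encodes the deubiquitinase A20, read 346 and 236 before serum and 4176 and 4862 after it (3.90 ± 0.21). The atypical inhibitor gene Nfkbiz rose from 3399 and 3645 to 17310 and 19260 (2.37 ± 0.17), and Nfkbia, the gene of IkB alpha, from 23650 and 25020 to 46110 and 47910 (0.95 ± 0.10). Among the subunits, Rel changed by 2.63, Relb by 1.70, Nfkb2 by 1.47 and Rela by 0.73. Vcam1, an adhesion molecule and later target, read 12970 and 17060 before and 10400 and 11900 after serum and was not called (limma adjusted p = 0.0785).

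A further list held genes with short-lived RNAs and early signalling enzymes. Of 22 tested, 15 rose (68.2%, against 8.41% of all genes tested), with a median of 1.44. Among the 15 members above the 40th percentile on all 4 knockout arrays, 10 rose (66.7%, against 8.88% of genes above that limit). The other 7 lay under it on some knockout array and could pass the filter through their high arrays. Rnd3 was called lower (-0.35), a call lost without any 1 of the 8 arrays and with median centring. Arc, an immediate early gene known from neurons, read 47.7 and 57.6 in starved fibroblasts and 6494 and 5986 after serum (6.51 ± 0.30, and 4.40 to 6.87 with the other pseudocounts). Its arrays were near the floor before serum and well apart after it. Trib1, a pseudokinase gene, rose from 886 and 961 to 17370 and 17100 (4.20 ± 0.19), and Ppp1r15a, a regulatory subunit that reverses the block on translation initiation, by 2.39. Mcl1, a short-lived survival protein of the BCL2 family, went from 6349 and 7917 to 24060 and 23410 (1.74 ± 0.12). Odc1 and Pias1 were not called (0.08 and 0.11).

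**Figure D3:**
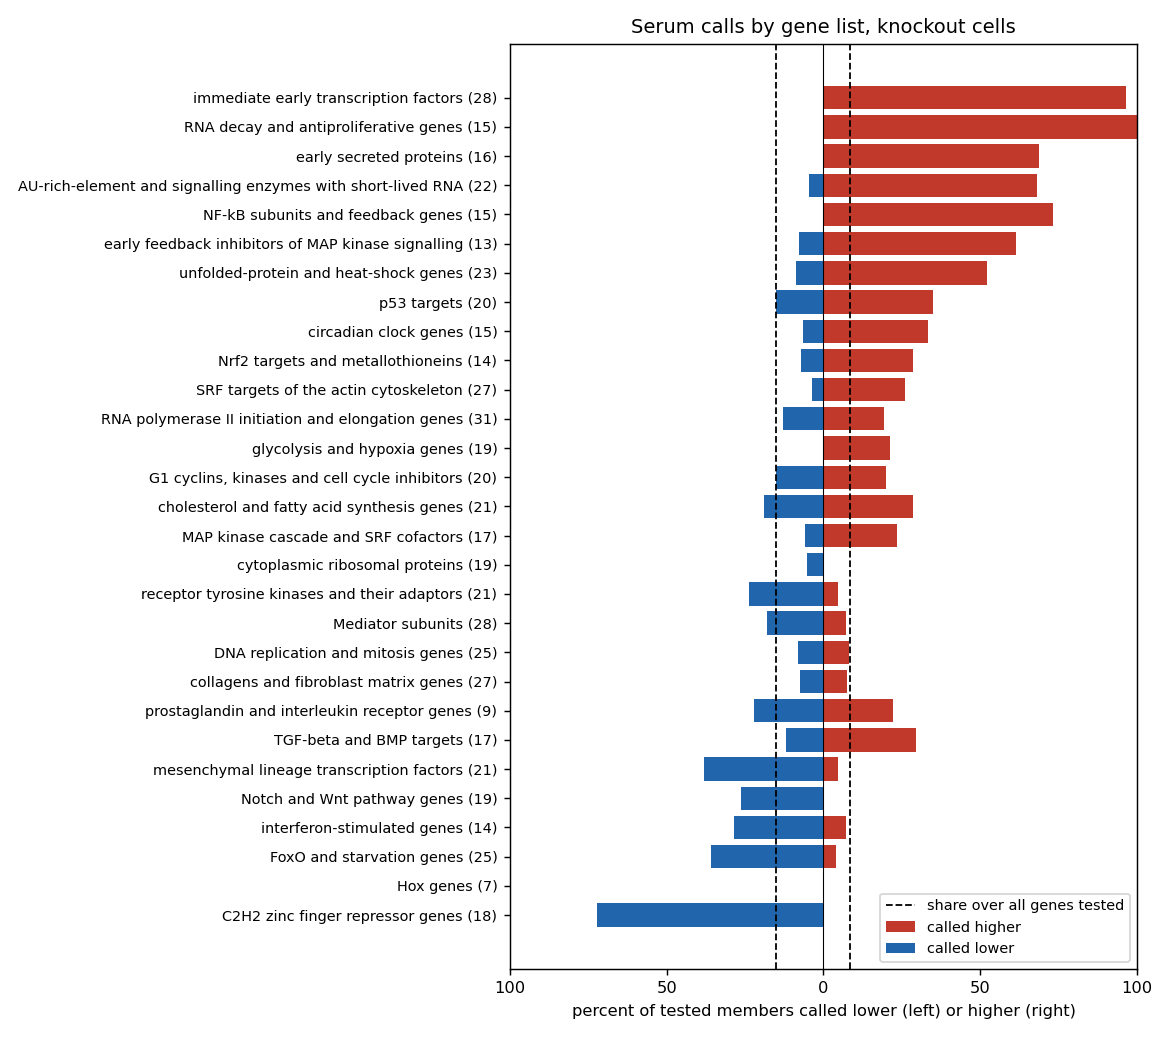
Percent of the tested members of each gene list (number tested in brackets) called higher with serum, to the right, or lower, to the left, in knockout cells; lists are ordered by their median change, and dashed lines mark the shares over all 8453 genes tested (8.41% higher, 15.2% lower). The upper lists reach 96.4% and 100% higher; in the zinc finger list at the bottom, with 72.2% lower, 9 of 18 members lay under the 40th percentile on some knockout array.

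Of 23 tested heat-shock and unfolded-protein genes, 12 were called higher (52.2%, against 8.41% of all genes tested). Another 2 were called lower (8.7%, against 15.2%), and the median change of the list was 0.49. Dnajb1, an HSP40 co-chaperone gene, read 4671 and 3543 before serum and 23240 and 23070 after it (2.50 ± 0.14, limma adjusted p = 1.43e-06), and its relatives Dnajb4 (2.14) and Dnaja1 (1.08) rose with it. Hspa1a and Hspa1b, the inducible HSP70 genes, rose by 1.62 and 1.51. These genes are near-identical copies, so their probe sets may share signal. The constitutive chaperone genes Hspa8, Hspa5, Hspd1 and Hspe1 were not called, with changes from -0.16 to 0.17. Atf4, the central factor of the integrated stress response, rose from 13050 and 12640 to 26270 and 26570 (1.04 ± 0.10), whereas its later targets Asns, Psat1 and Trib3 were not called and Chac1 was called lower (-0.53). Both falls in this list, Chac1 and Hsph1, were lost with the arrays centred on their medians and without either stimulated or the second starved array.

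Of 14 tested NRF2 targets and metallothioneins, 4 rose (28.6%) and 1 fell (7.14%). Hmox1, heme oxygenase, went from 1093 and 1436 to 7538 and 6756 (2.50 ± 0.31), and Txnrd1, thioredoxin reductase, from 6105 and 5478 to 15770 and 14950 (1.41 ± 0.14). Gclm (0.73) and Mt2 (1.28) were called too, but not without the second stimulated array. The fall, Keap1 (-0.44), was lost in most alternatives. Among p53 targets 7 of 20 rose (35.0%, against 8.41% of all genes) and 3 fell, a share near the background of 15.2%. Besides Btg2 and Plk3, the largest of these rises were Pmaip1, a pro-death BH3 gene, from 541 and 597 to 4273 and 4492 (2.91 ± 0.15), and Cdkn1a, the gene of the cell cycle inhibitor p21, from 3995 and 1055 to 12410 and 11640 (2.54 ± 0.47). The starved Cdkn1a arrays differed widely from each other but not enough to meet the stimulated ones, and the change was 1.59 to 3.49 with 1 knockout array left out. Sesn2 rose by 1.68, while Bbc3, Zmat3 and Phlda3 were not called, and the 3 falls (Ccng1, Ddb2 and Ei24) were not called with median centring or without either stimulated array.

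A few enzymes of cholesterol synthesis rose. Of 21 tested genes, 6 were called higher (28.6%, against 8.41% of all genes tested). Another 4 were called lower (19.0%, near the 15.2% of all genes), and the median of the list was -0.04. Cyp51, lanosterol demethylase, went from 4089 and 5852 to 18670 and 18060 (1.91 ± 0.20). Sc5d read 4761 and 5318, then 14700 and 14930 (1.56 ± 0.12), and Stard4, a sterol carrier, rose by 1.60. Idi1, Hmgcs1 and Sqle rose by 0.64 to 1.13, but Mvk (-0.67) and Srebf1 (-0.63) fell (of these 5, all but Idi1 lost their calls without the second stimulated array) and Lss, Mvd, Dhcr7 and Fdps were not called. With median centring 8 were called higher and 1 lower. Without either stimulated array 4 were called higher and 1 lower, and without either starved array 2 lower.

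Of 19 tested genes in the glucose group, 4 rose (21.1%, against 8.41% of all genes tested) and none fell. Hk2, hexokinase, rose from 1341 and 1316 to 3115 and 3604 (1.32 ± 0.14), and Slc2a1, the glucose transporter GLUT1, from 1099 and 1711 to 3484 and 3824 (1.40 ± 0.19). These were 2 of the 4 of 19 genes called, and 2 were counted without either stimulated array or without the first starved one. Among 15 clock genes 5 rose (33.3%, against 8.41% of all genes tested) and 1 fell (6.67%, against 15.2%). Nfil3, a repressor of D-box genes, read 931 and 685, then 6674 and 7481 (3.12 ± 0.16), and Per1 rose by 0.89, whereas Per2, Nr1d1, Dbp and Arntl were not called. Clock (0.54) and Tef (-0.39) lost their calls in several alternatives, and 3 clock rises were counted without the first starved or either stimulated array. Of 27 matrix genes, 2 were called higher and 2 lower (7.41% each, against 8.41% and 15.2% of all genes tested). The protease inhibitors Timp1 (1.27) and Timp3 (0.99) rose, and Col1a1, Col3a1 and Fn1 were not called (-0.24 to -0.11). Without the first starved array 5 matrix genes were called lower, and without any other knockout array 0 were.

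The falls were led by a gene of glycogen metabolism. Ppp1r3c, which targets protein phosphatase 1 to glycogen, read 7179 and 8405 on the starved knockout arrays and 52.5 and 69.4 on the stimulated ones. The stimulated arrays were dim, and the change of -6.67 ± 0.28 (limma adjusted p = 2.01e-07) was the largest fall among genes called lower, by the brightest probe set of each. With the other pseudocounts the change was -6.98 to -4.66. A second probe set of the gene read 2201 and 3830, then 72.9 and 57.7. Fam43a had the largest fall with all 4 arrays above the 40th percentile, from 13400 and 10740 to 1468 and 1018 (-3.28 ± 0.27, limma adjusted p = 3.03e-05). Ephb3, an ephrin receptor kinase gene, fell from 5677 and 3782 to 921 and 630 (-2.58 ± 0.26), and Clk2, a kinase of splicing factors, from 4595 and 4558 to 1315 and 1368 (-1.76 ± 0.14). Atg14, an autophagy gene, fell by 1.70 on the log2 scale, from 2375 and 2184 to 674 and 702.

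Genes of the FoxO and starvation program, which insulin-like signals repress, fell in part. Of 25 tested, 9 fell (36.0%, against 15.2% of all genes tested) and 1 rose, with a median of -0.40 (-0.24 with median centring), and between 6 and 10 fell with 1 knockout array left out. Of the 20 members above the 40th percentile on all 4 knockout arrays, 6 fell (30.0%, against 15.6% of genes above that limit). The other 5 lay under it on some knockout array and could pass the filter through their high arrays, and 3 of them fell. Fbxo32, the ubiquitin ligase atrogin-1, read 949 and 1112 before serum and 102 and 174 after it. The change was -2.80 ± 0.22 (limma adjusted p = 2.23e-05), and -2.94 to -1.71 with the other pseudocounts. Txnip, an inhibitor of thioredoxin and glucose uptake, went from 28920 and 24230 to 10000 and 4933 (-1.91 ± 0.29). Both stimulated arrays were below both starved ones but were unlike each other. Ddit4, a brake on mTORC1, fell from 1183 and 859 to 343 and 432 (-1.35 ± 0.20). Ccng2, Irs1, Arrdc4 and Foxo1 fell by 0.67 to 0.83 on the log2 scale, and Cited2 rose by 0.63. The calls of Cited2 and Arrdc4 were lost without either stimulated array, and those of Arrdc4 and Foxo1 without the second starved array. Sesn1, Bcl6, Cdkn1b, Pdk4 and Foxo3 were not called.

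**Figure D4:**
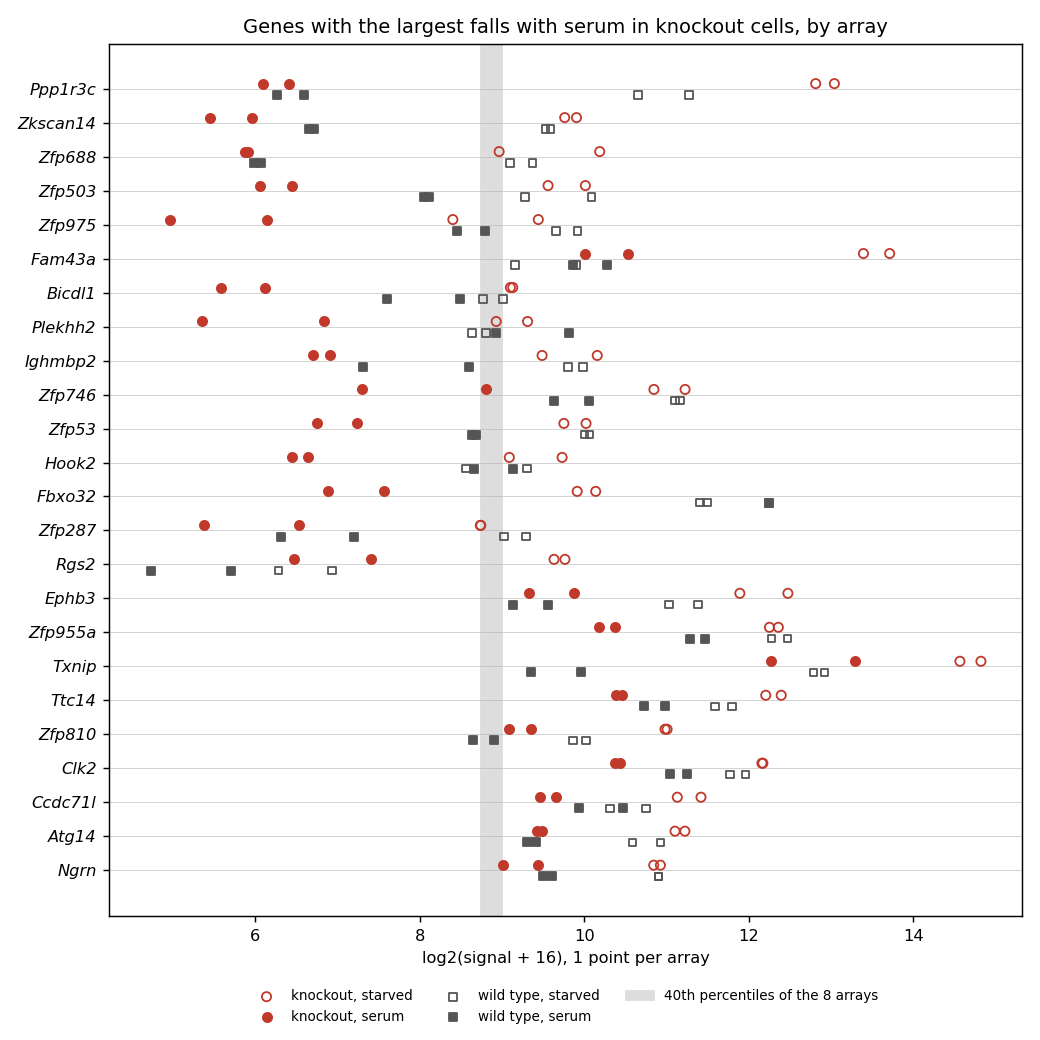
Log2(signal + 16) on each array of the 24 genes named for the largest falls in knockout cells, ordered by the change; circles are knockout and squares wild-type arrays, open for starved and filled for stimulated cells, and the grey band spans the 40th percentiles of the arrays. Filled circles lie to the left of open ones in every gene, and many of them lie left of the band, in the dim range.

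Some zinc finger genes fell. In a list of C2H2 zinc finger repressors, mostly with a KRAB or SCAN domain, 18 genes were tested. Like the other lists, it was chosen with earlier results of these data known, so its shares only describe these data. Of the 9 members above the 40th percentile on all 4 knockout arrays, 4 fell and none rose (44.4%, against 15.6% of genes above that limit on all 4). The other 9 lay under it on at least 1 knockout array, and all 9 were called lower. Such dim genes could pass the filter through the arrays where they were high, so the count of 13 of 18 is a description and supports no statement about the list. With the filter raised to the 60th percentile 9 members were tested and 4 fell, with a median of -0.48. Zkscan14 read 944 and 853 before serum and 46.2 and 27.9 after it (-4.13 ± 0.36, limma adjusted p = 4.72e-05). Zfp503 fell from 739 and 1018 to 71.4 and 50.8 (-3.53 ± 0.36), and Zfp113 from 882 and 1043 to 198 and 86.0 (-2.72 ± 0.39). With the other pseudocounts these changes were -4.60 to -1.98 for Zkscan14, -3.825 to -1.829 for Zfp503 and -2.87 to -1.63 for Zfp113. Smaller falls were those of Zfp90, which read 2037 and 2277, then 761 and 774 (-1.47 ± 0.18), and of Zkscan1, which read 3018 and 3466, then 1710 and 1545 (-0.99 ± 0.17). Zscan21, Zfp280c and Zkscan3 were not called, at 0.01, -0.11 and -0.22.

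The same count was made, after the values had been seen, over every tested gene whose symbol starts with Zfp, Zkscan or Zscan. Among the 95 above the 40th percentile on all 4 knockout arrays, 30 fell (31.6%) and 10 rose (10.5%), against 15.6% and 8.88% of genes above that limit on all 4. Of all 143 such genes tested, 65 fell and 11 rose (53 fell with median centring), but 35 of the 65 were among the 48 with a signal under the limit, to which the same caution applies. The number of the 143 that rose was 7 without the first and 6 without the second stimulated array. Zfp955a was a bright example, from 4857 and 5236 to 1146 and 1313 (-2.03 ± 0.14), and Zfp810 fell from 2007 and 2042 to 639 and 529 (-1.77 ± 0.19). The symbols also cover genes of other roles, such as Zfp36, which rose.

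Transcription factor genes of mesenchymal lineages were lower in part. Of 21 tested, 8 fell (38.1%, against 15.2% of all genes tested) and 1 rose (4.76%, against 8.41%). Of these 21 genes, 20 lay above the 40th percentile on all 4 knockout arrays. The number that fell was 5 with median centring, 3 without the second stimulated array, 5 without the first and 4 without the second starved array. Osr1, an early mesenchyme factor, read 2325 and 2399 before serum and 809 and 672 after it (-1.66 ± 0.24, limma adjusted p = 0.00118). Snai2, a repressor of epithelial genes, fell from 5531 and 5007 to 2223 and 2657 (-1.11 ± 0.18), and Foxc2 from 2243 and 1742 to 703 and 808 (-1.37 ± 0.24). Sox9, the cartilage factor, read 6344 and 5938, then 3389 and 2374 (-1.11 ± 0.26), a call lost with any of 3 arrays left out. Twist1, Prrx1, Zeb1 and Runx1 were not called. Atoh8, a basic helix-loop-helix factor outside the list, read 4047 and 2826 before serum and 1232 and 1199 after it (-1.46 ± 0.41, limma adjusted p = 0.0284), and its call was lost without any 1 of the knockout arrays.

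Among Notch and Wnt pathway genes 5 of 19 fell (26.3%, against 15.2% of all genes) and none rose, and 4 of the 5 were Frizzled genes, the receptors for Wnt proteins. Fzd2 read 24580 and 25390, then 14610 and 14670 (-0.77 ± 0.10). Fzd7 fell from 4184 and 5309 to 1765 and 2094 (-1.29 ± 0.19), Fzd8 from 3593 and 3957 to 1548 and 1196 (-1.46 ± 0.24) and Fzd1 from 2545 and 2195 to 1207 and 1124 (-1.01 ± 0.18). The fifth, Wnt5a (-0.72), was not called without the first stimulated array, and Notch1, Notch2, Jag1 and Sfrp1 were not called. Receptor tyrosine kinase genes showed 1 rise and 5 falls among 21, but 1 fall with median centring and 1 to 2 falls without either stimulated or the second starved array. With all arrays on the deposited scale, 4.76% of the list rose and 23.8% fell, against 8.41% and 15.2% of all genes. The rise was Epha2, an ephrin receptor, from 1929 and 2299 to 7148 and 8436 (1.88 ± 0.20). Pdgfra, the receptor for platelet-derived growth factor AA, read 11150 and 15780 before and 6040 and 6981 after serum (-1.03 ± 0.22), a call lost without the first stimulated or the second starved array, and Met, Fgfr1, Pdgfrb and Igf1r were not called.

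Among TGF-beta and BMP targets 5 of 17 rose (29.4%) and 2 fell (11.8%), with a median of -0.25, and 4 fell without the second starved array. Over all genes tested 8.41% rose and 15.2% fell. The inhibitory Smad genes went opposite ways: Smad7 rose from 2832 and 2330 to 7242 and 7179 (1.48 ± 0.12), and Smad6 fell from 7864 and 8059 to 3113 and 3070 (-1.36 ± 0.19). Skil, which encodes the corepressor SnoN, rose from 3302 and 3755 to 15290 and 14100 (2.06 ± 0.18), and Bmp4 fell from 21990 and 19270 to 12530 and 10590 (-0.84 ± 0.15). Of the Id genes, helix-loop-helix inhibitors driven by BMP signals, 1 was called. Id1 read 5544 and 4293 before and 7300 and 5984 after serum (0.44 ± 0.27, limma adjusted p = 0.278). Id2 read 2239 and 2440, then 1444 and 1507 (-0.66 ± 0.23, limma adjusted p = 0.0672), and Id3 read 14850 and 11760, then 11970 and 12280 (-0.12 ± 0.16). Id4 was the one called, rising from 2162 and 2949 to 4679 and 4926 (0.92 ± 0.19), but not without the second stimulated array.

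Of 28 tested Mediator subunit genes 2 rose and 5 fell, shares of the same order as the background of 8.41% and 15.2%, and 1 or 2 falls and no rise were counted without either stimulated array. Without the first starved array 3 fell, and without the second 1 rose. With median centring 4 rose and 2 fell. Med24, which lies with MED23 in the tail module, fell from 2371 and 2688 to 1247 and 1205 (-1.03 ± 0.13, limma adjusted p = 0.000601). Med26 read 2112 and 806, then 3927 and 3506 (1.50 ± 0.36), a call lost without either stimulated array. Med1, Med14, Med15, Cdk8 and Ccnc were not called. Among RNA polymerase II initiation and elongation genes 6 of 31 rose (19.4%) and 4 fell (12.9%, near the background of 15.2%), between 3 and 8 rising and 2 and 5 falling with 1 knockout array left out, the fewest of both without the first stimulated array. Ell2 (0.84) and Aff4 (0.85), components of the super elongation complex, rose, and Nelfa (-0.73) and Nelfb (-0.66), subunits of the pausing factor NELF, fell.

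Of 17 genes of the MAP kinase cascade and SRF cofactors, 4 rose and 1 fell, and 2 rose with any 1 knockout array left out. With all arrays, 23.5% of the list rose and 5.88% fell, against 8.41% and 15.2% of all genes tested. Mapkapk2, the kinase that acts on tristetraprolin, rose from 4282 and 2645 to 7185 and 8790 (1.24 ± 0.20), and Mrtfa, the actin-regulated SRF coactivator, fell from 11050 and 10640 to 6697 and 6610 (-0.70 ± 0.12). Elk1 read 932 and 726, then 1136 and 1084, and was not called (0.43 ± 0.18), and Braf, Araf, Nras and Mapk14 were not called either. SRF targets of the actin cytoskeleton rose in 7 of 27 cases and fell in 1, with 4 rises without the first stimulated array. Their shares with all arrays were 25.9% higher and 3.7% lower, against 8.41% and 15.2% of all genes tested. Itga5, an integrin subunit, went from 2256 and 1842 to 9211 and 10320 (2.25 ± 0.14), and Cnn1, calponin, from 1855 and 1396 to 6364 and 6934 (2.03 ± 0.16). Vcl rose by 0.32, a call lost in several alternatives, while Actb, Actg1, Acta2, Tagln and Flna, all bright, were not called (-0.11 to 0.15).

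The lists that follow stand beside all genes tested, of which 8.41% rose and 15.2% fell. Of 27 Hox genes 7 were tested, and their smallest limma adjusted p was 0.168 (Hoxa5). Among ribosomal protein genes 1 of 19 was called, Rpl22, a call lost in several alternatives. Replication and mitosis genes had 2 rises and 2 falls among 25, and 1 rise without either stimulated or the first starved array. Mcm7, a helicase subunit, fell from 8255 and 7389 to 3843 and 3931 (2.01-fold lower, limma adjusted p = 0.000204), and Cdk1 from 2640 and 2731 to 1290 and 1696 (-0.85 ± 0.15). Among G1 genes 4 of 20 rose (20.0%) and 3 fell, with Ccnd1 (-0.23), Ccnd2 and Cdkn1b not called. The rises were 2 without either stimulated array and 1 without the second starved one, and the falls were 0 or 1 without any 1 of the 8 arrays and 0 with median centring. The interferon-stimulated genes counted 1 rise (7.14%) and 4 falls (28.6%) among 14 but 1 and 1 under median centring or quantile normalization, and 1 fall without either stimulated or the second starved array, with 0 rises without the second stimulated one. Col1a2 had the widest error of the matrix genes (-0.31 ± 1.19) although its knockout arrays were close to each other, at 69880 and 91080 before and 62380 and 66210 after serum. The fit estimates its spread over all groups, and the wild-type arrays read 581 and 743 in set 1 and 8871 and 9443 in set 2.

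Where a gene had several probe sets, these mostly moved together. Of 376 genes called higher by their brightest probe set that had others tested, all others had the same sign in 320 (85.1%), and in 68.1% at least 1 other was also called. Among 510 genes called lower the figures were 429 (84.1%) and 48.0%. Calls in the opposite direction were found in 3 and 5 genes.

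The knockout response was then set beside that of wild-type cells, where serum called 619 probe sets (4.14% of those tested), 365 higher (2.44%) and 254 lower (1.70%). By the brightest probe set of each gene, 2.76% of genes rose and 1.99% fell there. Over all 14947 tested probe sets the changes in the 2 genotypes, measured on different arrays, correlated at Pearson r = 0.547 and Spearman rho = 0.375, as a description across probe sets that share platform and scaling. Probe sets that rose in both numbered 275, which is 19.7% of those that rose in knockout and 75.3% of those that rose in wild-type cells. The 165 that fell in both were 8.01% and 65.0%. Of the 1395 probe sets that rose in knockout cells, 1155 did not pass the test between genotypes given next. Of the 2060 that fell, 1945 did not pass it. The difference between genotypes in the response itself (the interaction term in limma) passed for 402 probe sets (2.69%), 241 with a higher value in knockout cells and 161 with a lower one, and over genes by their brightest probe set the shares were 1.56% and 1.16%. That count was 127 without the first and 176 without the second stimulated knockout array, and 159 to 210 without any 1 of the wild-type arrays.

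Jun rose in both genotypes. Its wild-type arrays read 2552 and 2818 before and 15870 and 16090 after serum, so that it rose by 2.57 there against 8.10 in knockout cells, a difference of 5.54 ± 0.20 (limma adjusted p = 1.06e-06). Because its starved knockout signals lay below the 40th percentile this size is approximate, and it was 3.99 with the highest and 5.74 with the lowest pseudocount tried. The starved knockout arrays were the low ones, at 84.0 and 109, while the stimulated ones were above those of wild type. Egr1 was also lower on the starved knockout arrays than on the starved wild-type ones (-2.15, limma adjusted p = 3.1e-06). After serum its knockout arrays lay below those of wild type by an amount that was not called (-0.15, limma adjusted p = 0.461). Egr1 read 6993 and 7545 in starved and 44250 and 44090 in stimulated wild-type cells. Its response differed between genotypes by 2.01 ± 0.22 (limma adjusted p = 0.00201). Gadd45a read 2576 and 4091 in starved wild-type cells and 1393 and 1747 after serum, a change of -1.05 that was not called, against 2.82 in knockout cells. Ccl2, which rose by 5.41 in knockout cells, rose by 1.99 in wild type, and Ccl7 rose by 4.76 in knockout cells and was not called in wild type (1.29). The differences for Atf3 (4.38) and Ccl7 (3.46) were not called without either stimulated knockout array, nor in a fit without the variance trend of limma. With the other pseudocounts the difference was 2.61 to 4.76 for Atf3 and 1.91 to 4.41 for Gadd45a.

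In the other direction stood the Id genes. Id2 rose in wild-type cells from 134 and 76.0 to 1646 and 1545 (3.78, limma adjusted p = 6.34e-06), a difference of -4.44 ± 0.33 (limma adjusted p = 0.000268). Id1 rose there by 3.81, Id3 by 1.64 and Id4 by 3.49, and each differed between genotypes (-3.38, -1.76 and -2.57 for knockout minus wild type). Starved knockout cells held more Id2 signal, 2239 and 2440, than stimulated wild-type cells. Fam43a and Fbxo32 fell in knockout cells but were not called in wild type (0.54 and 0.79), with differences of -3.81 and -3.59. Fam43a read 944.5 and 556 in starved and 1224 and 915 in stimulated wild-type cells, near the 1468 and 1018 of stimulated knockout cells. Its high arrays were the starved knockout ones, at 13400 and 10740. Fbxo32 read 2697 and 2866 in starved and 4833 and 4824 in stimulated wild-type cells. Plekhh2, at 472 and 620 before and 98.9 and 25.0 after serum in knockout cells, and Gm13889, low on all 4 knockout arrays (19.3 to 55.7) and rising from 75.0 and 77.8 to 1832 and 1378 in wild type, were the others named on this side, with Atoh8. The differences for Plekhh2 (-3.67) and Gm13889 (-3.90) lost their calls in several alternatives.

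**Figure D5:**
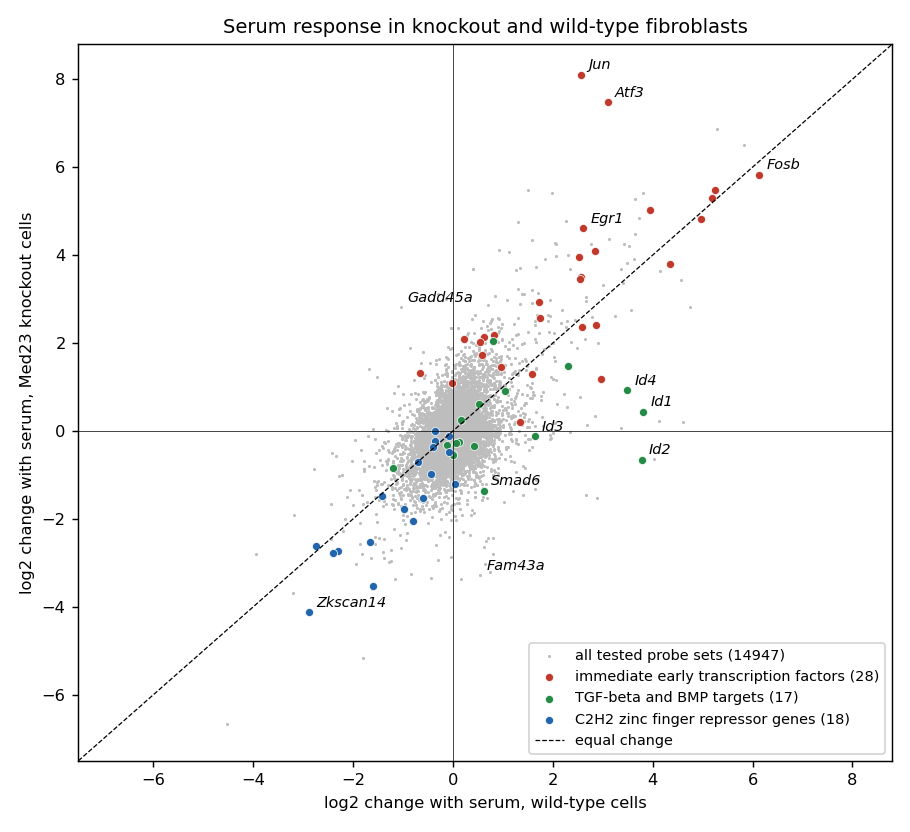
Log2 change with serum in knockout cells (vertical) against wild-type cells (horizontal), 1 grey point per tested probe set, with the members of 3 gene lists in colour and the dashed line where both changes are equal. Jun (8.10 against 2.57) and Atf3 (7.47 against 3.10) lie far above the line, Fosb (5.83 against 6.13) close to it, and Id1, Id2 and Id4 below it.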

How the data were processed

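Per the labels, total RNA of each sample was labelled with biotin and measured on 1 array. The authors deposited 1 linear intensity for each probe set; the submitters' processing notes name MAS5 without a version. Since that method corrects each probe by its mismatch partner, dim signals and folds against them are imprecise; detection calls are not given in the sources used here. Of 22690 probe sets, 64 controls were left out, and those at or above the array's 40th percentile on at least 2 of 8 arrays (14947) were fitted as log2(signal + 16) with limma 3.58.1 in R 4.3.3. The fit had 1 mean per group of the 8 arrays, eBayes with a trend and two-sided p-values, adjusted by Benjamini-Hochberg across every probe set in the fit; calls needed an adjusted p below 0.05. Its residual degrees of freedom were 4 and its prior ones 6.07. It was tested on simulated data, and precision is limited by 2 arrays per group. Probe sets were named through the platform's gene table (20380 with 1 gene, 691 with several, 1555 with none), and a gene was represented by its brightest probe set.

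The lists and rules were chosen with earlier results of these data known. Of 711 entries in 29 lists (701 genes), 617 genes were on the array and 557 tested. Genes were named by rule: Med23, Egr1, list members (with values for up to 5 called ones per list by smallest p), the 15 largest rises and falls without overlap, the 10 largest of each with all 4 knockout arrays above the limit, and 6 of each sign in the interaction. The promoters shown for Zfp36, Btg2, Maff and Dusp1, the TGACGTCA count by called genes and the count over zinc finger symbols were chosen after the values were seen, as were list members named beyond the rule for contrast. The 21 alternatives were other pseudocounts, scalings, filters and fits, the set number as a block, and leaving out each array. Same-numbered knockout arrays deviated from their group means with a correlation of 0.10 and wild-type arrays with 0.21, and the labels do not pair the sets.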

Additional observations from a re-analysis of the deposited data

Results flagged for a closer look

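The log2 response to serum differed between knockout and wild-type cells, by the interaction term in limma, for 402 probe sets. Among the genes given values in the text or chosen by the naming rule, 62 were called. Each value below is the knockout response minus the wild-type response on the log2 scale, with 2 arrays per group. It was above 0 and largest for Jun (5.54), Atf3 (4.38), Gadd45a (3.86), Ccl7 (3.46), Ccl2 (3.42), Gadd45g (3.20), Sgk1 (2.22), F3 (2.21), Slc20a1 (2.17), Dusp1 (2.07), Egr1 (2.01), Ptgs2 (1.91), Jund (1.86), Nfil3 (1.74), Ppp1r15a (1.70), Cnn1 (1.67), Cyp51 (1.58), Dnajb4 (1.54) and Klf4 (1.51). It was above 0 and smaller for Klf6 (1.47), Maff (1.43), Sc5d (1.43), Stard4 (1.36), Pmaip1 (1.34), Foxo3 (1.31), Skil (1.26), Junb (1.25), Zfp36 (1.24), Hspa1a (1.24), Txnrd1 (1.16), Myc (1.15), Ccn2 (1.14), Btg1 (1.12), Dnaja1 (1.11), Mcl1 (1.06), Fhl1 (0.95), Klf10 (0.93), Atf4 (0.92) and Aff4 (0.77). It was below 0 for Id2 (-4.44), Atoh8 (-4.12), Gm13889 (-3.90), Fam43a (-3.81), Plekhh2 (-3.67), Fbxo32 (-3.59), Id1 (-3.38), Hook2 (-2.83), Sox9 (-2.76), Id4 (-2.57), Foxc2 (-2.57), Ppp1r3c (-2.14), Smad6 (-1.98), Fzd7 (-1.88), Bhlhe40 (-1.77), Id3 (-1.76), Spry2 (-1.45), Zfp319 (-1.24), Clk2 (-1.04), Zfp955a (-1.03), Ttc14 (-1.03), Med24 (-0.84) and Smad7 (-0.81). Of these genes, 29 lost the call under at least 1 alternative. Such a difference depends on the starved level as well as the stimulated one. On the log2 scale, knockout minus wild type was -4.59 in starved and 0.94 in stimulated cells for Jun. In the same order it was -3.85 and 0.53 for Atf3, -6.21 and -2.34 for Gadd45a, and -0.04 and 3.42 for Ccl7. For Ccl2 it was -1.87 and 1.55, and for Gadd45g -3.12 and 0.08. After serum, Atf3 and Gadd45g were not called different (limma adjusted p = 0.432 and 0.766).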

How the results depend on the processing

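With 2 arrays per group, every call rests on a spread pooled over groups, and signals under the 40th percentile carry little information. In knockout cells 3455 probe sets were called, 1395 higher and 2060 lower. With 1 probe set per gene, which tests fewer features, 2081 were called, 731 higher and 1350 lower. Median centring gave 992 lower calls; the cause was not tested. With 1 array left out, the calls ranged from 1581 to 3215, higher calls from 769 to 1350 and lower calls from 812 to 1894. The interaction count of 402 was 250 with 1 probe set per gene, 250 with no filter and 214 without the trend, and ranged from 127 to 495 with 1 array left out. Over 2-fold without overlap, 1040 probe sets became 617 with the highest of the 3 other pseudocounts tried, which shrinks changes of dim probe sets. Gm13889 and Med23, not called in knockout cells, changed sign with 1 array left out, ranging from -0.29 to 0.73 and from -1.52 to 0.23. Foxo3 and Id3, also not called there, ranged from -0.205 to 0.222 and from -0.292 to 0.044, and Id3 was 0.033 with median centring. Of 194 genes named in the text or by rule and called in knockout cells, 138 kept their call under every alternative that tested them. With the set number as a replicate block, 3494 probe sets were called (1413 higher, 2081 lower) and 399 in the interaction. The labels do not say what a set shares; deviations of same-numbered arrays correlated at 0.10 in knockout and 0.21 in wild-type cells, and close to 0 across genotypes.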
